A study of Mus musculus with 6 samples.

Results

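Excitation-contraction coupling and calcium handling genes were followed in quadriceps muscle of mice that carry a genocopy of the human variant rs6190. The set held 37 named genes of the 33641 gene symbols in the table, and their values are sums over the 240 transcript rows that carry those symbols. The genes were chosen by their known function, by a rule that uses none of the values, though earlier results of these data were known. Of the 37, 36 reached 1 TPM (a relative abundance scaled to transcript length) in at least 3 libraries and were tested, and Ryr3 did not.

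The libraries came from whole quadriceps of male littermates born to heterozygous parents, aged 4 months by the sample labels (about 16 weeks by the design text) with tissue taken at about ZT4, in the early light phase. One group of 3 libraries came from mice homozygous for the rs6190 allele, called homozygous here. The other group of 3 came from mice homozygous for the reference allele, called WT. rs6190 is a coding variant of the gene of the glucocorticoid receptor, the nuclear receptor for cortisol and, in mice, corticosterone. The allele is germline, so every cell type of the muscle carries it, and no other allele or treatment is named for either group. Nothing in the labels states that each library is a separate mouse, so p-values measure the spread between these libraries.

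In a muscle fibre the surface action potential enters the T-tubule and moves the voltage sensor, a calcium channel whose main subunit is Cacna1s. The sensor pulls open the ryanodine receptor Ryr1 in the facing sarcoplasmic reticulum, and calcium leaves the store held by calsequestrin. The SERCA pumps return it, and parvalbumin buffers it on the way in fast fibres. Fast and slow fibres use different paralogs: Atp2a1 and Casq1 dominate in fast fibres, Atp2a2 is the slow and cardiac pump, and Casq2 is the cardiac and slow-fibre calsequestrin. Calmodulin carries the calcium signal to the kinase CaMKII and the phosphatase calcineurin.

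Start-site sequences are shown for Rcan1, which had the largest fold change of the members that stayed apart after median centring, and for the fast and slow calsequestrins, which the paralog comparison turns on. Rcan1 encodes an inhibitor of calcineurin and has an upstream and an internal start, and the internal one is known as a target of calcineurin and NFAT. The table of RefSeq promoters (GRCm38.p6) held 22 of the 37 genes. Each window runs from 250 bases before to 50 bases after the start, and the gene's own strand is printed. In the Rcan1 windows the capitals mark GGAAA or its reverse complement, the core of NFAT sites. In the calsequestrin windows they mark the E-box CANNTG, the motif bound by myogenic factors.
Rcan1 upstream start, chr16:92466120-92466419, minus strand: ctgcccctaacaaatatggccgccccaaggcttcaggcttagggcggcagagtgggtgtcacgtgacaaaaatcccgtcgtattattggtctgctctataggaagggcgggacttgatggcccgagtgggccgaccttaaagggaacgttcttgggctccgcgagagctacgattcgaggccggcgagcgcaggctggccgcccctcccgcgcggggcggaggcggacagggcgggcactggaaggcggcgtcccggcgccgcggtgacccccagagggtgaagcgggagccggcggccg
Rcan1 internal start, chr16:92400029-92400328, minus strand: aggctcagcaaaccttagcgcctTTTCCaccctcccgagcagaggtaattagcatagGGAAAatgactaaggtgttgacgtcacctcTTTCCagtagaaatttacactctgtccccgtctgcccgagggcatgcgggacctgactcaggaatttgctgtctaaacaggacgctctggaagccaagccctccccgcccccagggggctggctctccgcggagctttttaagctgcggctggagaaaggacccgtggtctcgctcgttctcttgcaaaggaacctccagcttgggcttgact
Casq1 (fast), chr1:172219846-172220145, minus strand: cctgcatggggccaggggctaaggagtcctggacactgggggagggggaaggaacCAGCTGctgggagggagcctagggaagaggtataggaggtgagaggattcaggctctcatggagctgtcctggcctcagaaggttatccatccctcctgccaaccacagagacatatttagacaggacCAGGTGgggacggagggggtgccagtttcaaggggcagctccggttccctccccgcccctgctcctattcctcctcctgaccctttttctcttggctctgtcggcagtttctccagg
Casq2 (slow), chr3:102086165-102086464, plus strand: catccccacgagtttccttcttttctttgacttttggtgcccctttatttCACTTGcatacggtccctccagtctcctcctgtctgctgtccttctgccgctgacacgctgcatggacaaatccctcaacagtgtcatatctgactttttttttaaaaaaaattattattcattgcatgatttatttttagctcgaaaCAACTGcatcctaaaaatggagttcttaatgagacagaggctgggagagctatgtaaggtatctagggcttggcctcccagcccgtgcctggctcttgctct
The internal Rcan1 window held 3 GGAAA matches and the upstream window 0, with both strands searched and no overlap between matches. Of 32544 different promoter windows of this length, 9.44% held at least 3 and 61.5% at least 1. The calsequestrin windows held 2 E-boxes each, which 39.6% of all windows reached. The glucocorticoid receptor half-site AGAACA, searched on both strands, was present once each in Sypl2, in Pln and in 1 of the windows of Pvalb among the member windows, and 18.9% of all windows held it. A match is a run of letters and not a bound site.

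The libraries differed before any member is considered. WT replicate 3 stood apart: its 10 fast-fibre markers summed to 192040 TPM against 84043 to 111870 TPM elsewhere, and its 9 slow-fibre markers to 238 TPM against 1060 to 9276 TPM. Homozygous replicate 2 held the 9276 TPM. Within the fast list Myh4, the IIb myosin, overlapped at 5302 ± 1312 and 8882 ± 4789 TPM. Myh1 and Myh2, the IIx and IIa myosins, were higher in every homozygous library, also after median centring, at 1126 ± 163 against 339 ± 114 TPM and 599.8 ± 125 against 252 ± 121 TPM (log2 fold changes 1.77 and 1.37, adjusted p 0.168 each in limma). The part of fibre type in the members' values was not tested. The slow-fibre markers summed higher in every homozygous library, so the slow-fibre covariate given with the paralogs cannot be told apart from genotype. The cardiac genes Ryr2 and Myh6 were at most 0.0334 and 1.46 TPM, while Actc1, the cardiac actin, was 363 TPM in WT replicate 3 and at most 18.9 TPM in the others. Over the 11099 genes tested the log2 fold change (homozygous minus WT, on log2(TPM + 1), which understates the change of low genes) had a median of 0.265. For members whose groups lay apart with or without centring, the value after centring each library on its median is therefore also given.

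None of the 36 members tested passed an adjusted p under 0.05 (limma), where 0.0% of all genes did. At an unadjusted p under 0.05 in limma, 7 members were higher in the homozygous libraries and 0 lower, against 23.7% and 0.55% of all genes. The 3 homozygous libraries lay above the 3 WT libraries without overlap for 9 members (25.0% of those tested, against 34.7% of all genes), and below for 0 (against 0.73%). These shares are at or under the background of the whole table, as is the share with a log2 fold change above 0 (26 of 36, against 85.8%). After median centring 3 members lay above and 3 below, against 6.79% and 8.38% of all genes, and at an unadjusted p under 0.05 the split of 7 and 0 became 2 and 2, against 3.65% and 4.61% of all genes. The median log2 fold change of the members was 0.17, beside 0.265 for all genes, and 22 of the 36 lay under that median.

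**Figure D1:**
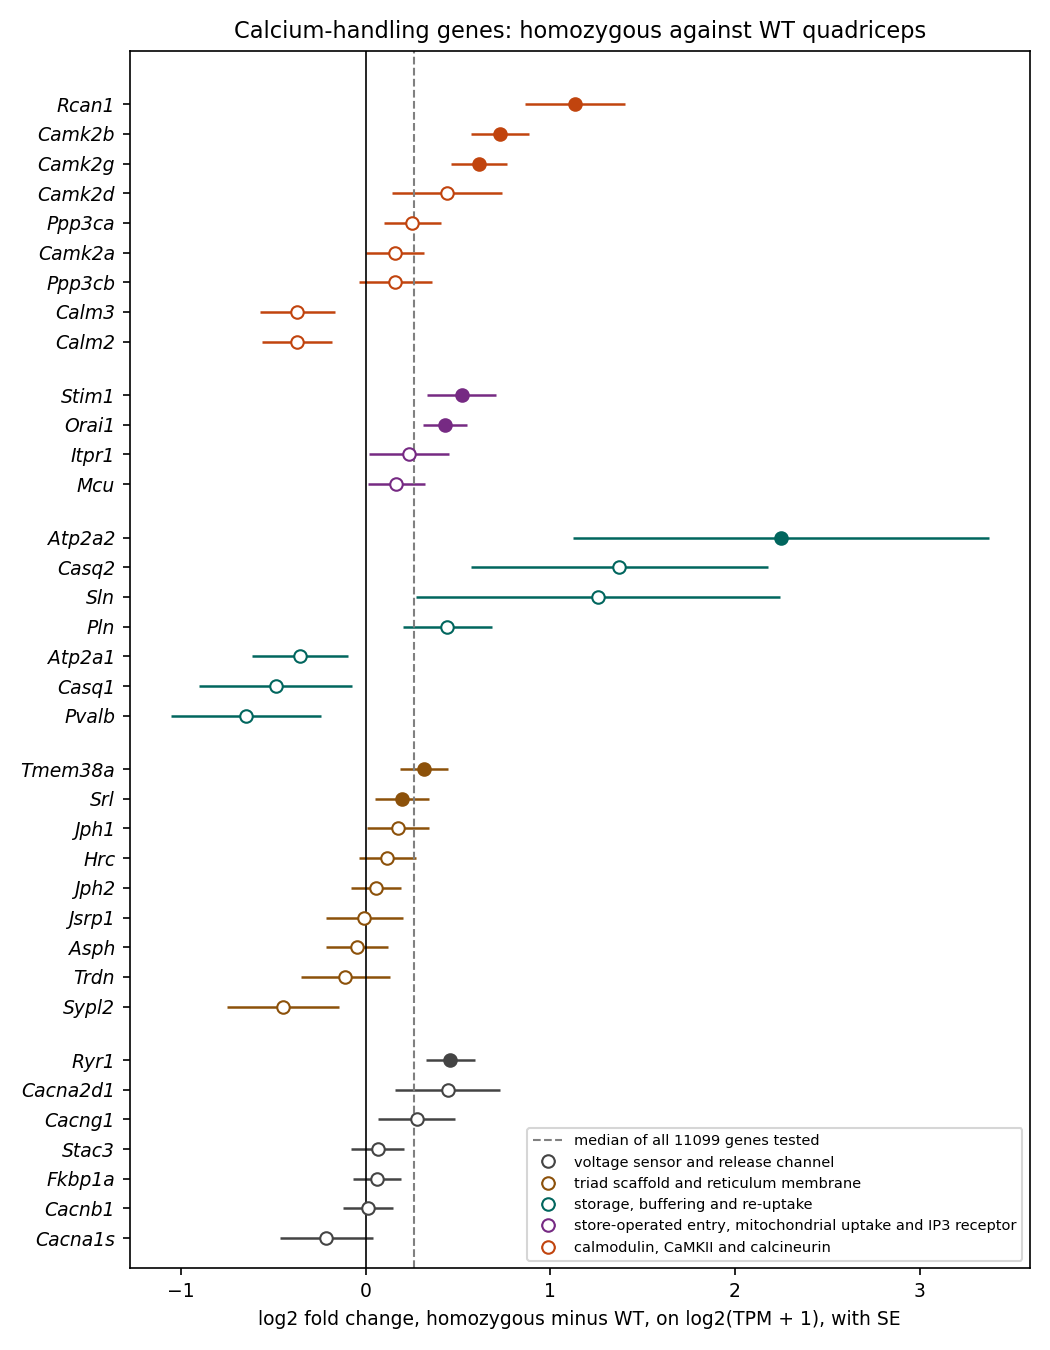
Log2 fold change (homozygous minus WT, on log2(TPM + 1)) with its standard error for the 36 members tested, coloured by role, with the solid line at 0 and the dashed line at the median of all genes. Filled points mark the 9 members whose groups did not overlap in TPM, and Atp2a2, Casq2 and Sln have the widest errors.

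The release channel and the voltage sensor gave different values. Ryr1, the release channel itself (chromosome 7, 29003344 to 29125179, minus strand, GRCm38), was 285, 261 and 248 TPM in homozygous replicates 1, 2 and 3 and 203, 174 and 200.3 TPM in WT replicates 1, 2 and 3. The groups did not overlap, with averages of 265 ± 19.0 and 192 ± 16.0 TPM (SD, n = 3 each). On the log2 scale the difference was 0.46 (SE 0.13; limma, adjusted p 0.168), or 0.16 after median centring, where the groups overlapped. Ryr3, the minor ryanodine receptor of adult muscle, was 0.237, 0.552 and 0.224 TPM in homozygous muscle against 0.118, 0.292 and 0.459 TPM in WT, with overlap.

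Cacna1s, the pore and voltage sensor of the T-tubule channel (chromosome 1, 136052750 to 136119822), was 365, 278 and 283 TPM in homozygous muscle against 339, 257 and 513 TPM in WT. The groups overlapped and WT replicate 3 was the highest. Its log2 fold change was -0.21 (SE 0.25; limma, adjusted p 0.581). Without its short transcript of the 3′ end, given with the isoforms, the log2 fold change of Cacna1s was 0.59. The auxiliary subunits Cacnb1, Cacng1 and Cacna2d1 and the adaptor Stac3, which is needed for sensor and release channel to couple, all had overlapping groups. Cacna2d1 was nearly level in homozygous muscle, at 58.5 to 61.7 TPM, and ranged from 26.0 to 62.7 TPM in WT. Of this group Cacnb1 differed least, at 93.0 ± 7.58 and 92.3 ± 9.85 TPM. Fkbp1a, which binds and steadies the release channel, was 88.5 ± 5.83 and 84.8 ± 7.75 TPM, and after median centring it lay lower in every homozygous library (log2 fold change -0.24).

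Of the 9 genes of the triad scaffold and reticulum membrane, 8 had a log2 fold change under the median of all genes. The exception was Tmem38a, which encodes the counter-ion channel TRIC-A of the reticulum (chromosome 8, 72572055 to 72587282). It was 905, 878 and 899 TPM in homozygous muscle against 739, 693 and 722 TPM in WT, with a small spread in each group and no overlap. Its log2 fold change of 0.32 (SE 0.13, adjusted p 0.196 in limma) became 0.015 after median centring, close to the median of all genes. Srl, which encodes the reticulum protein sarcalumenin, had groups that did not overlap either, at 384 ± 56.9 and 332 ± 5.28 TPM. Its log2 fold change was 0.20 (SE 0.15, adjusted p 0.389 in limma), and -0.10 with overlapping groups after median centring. The junctophilins Jph1 and Jph2, which tie T-tubule to reticulum, and Trdn, Asph, Jsrp1 and Hrc, which sit around the release channel and calsequestrin, had overlapping groups, with log2 fold changes from -0.11 for Trdn to 0.18 for Jph1. Sypl2 (mitsugumin 29, a T-tubule membrane protein) had the lowest value of this group, -0.45, with WT replicate 3 at 141 TPM and the other 5 libraries at 55.5 to 91.6 TPM.

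The fast and slow paralogs of storage and re-uptake held the widest spread. Pvalb (parvalbumin, chromosome 15) and Atp2a1 (SERCA1, chromosome 7, 126445858 to 126463108, minus strand) were the most abundant members. Atp2a1 was 8370, 6392 and 7595 TPM in homozygous muscle against 8344, 7596 and 13373 TPM in WT. WT replicate 3 stood alone at the top, and the other 5 libraries lay together. The log2 fold change was -0.35 (SE 0.26; limma, adjusted p 0.384), and -0.10 without WT replicate 3. After median centring it was -0.65 and the homozygous libraries lay below without overlap. Pvalb was 11103, 6283 and 8886 TPM against 9013, 10483 and 25245 TPM, with a log2 fold change of -0.65 (SE 0.41, adjusted p 0.322 in limma), and -0.19 without WT replicate 3.

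Atp2a2 (SERCA2, chromosome 5, 122453513 to 122502225, minus strand) was 67.6, 389 and 77.4 TPM in homozygous muscle against 60.3, 50.5 and 5.21 TPM in WT. The groups did not overlap, but the gap between the lowest homozygous and the highest WT library was small beside the range within each group. The log2 fold change was the largest of the members, 2.25 (SE 1.13; limma, adjusted p 0.261). It was 1.19 without WT replicate 3 and 1.44 without homozygous replicate 2. After median centring it was 1.95 and the groups overlapped. In whole muscle, more slow fibres and more of this RNA per slow fibre cannot be told apart.

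Casq1 (chromosome 1, 172209894 to 172219868, minus strand) was 1391, 959 and 1133 TPM in homozygous muscle against 973, 1310 and 3267 TPM in WT. Its log2 fold change of -0.49 (SE 0.41, adjusted p 0.446 in limma) rested on WT replicate 3, without which it was 0.024. Casq2 (chromosome 3, 102086415 to 102146514) was 13.9, 49.5 and 18.5 TPM against 19.2, 12.96 and 1.99 TPM. Here the groups overlapped, with homozygous replicate 2 highest and WT replicate 3 lowest, as for Atp2a2. The log2 fold change was 1.37 (SE 0.81; limma, adjusted p 0.309), or 0.55 without WT replicate 3.

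**Figure D2:**
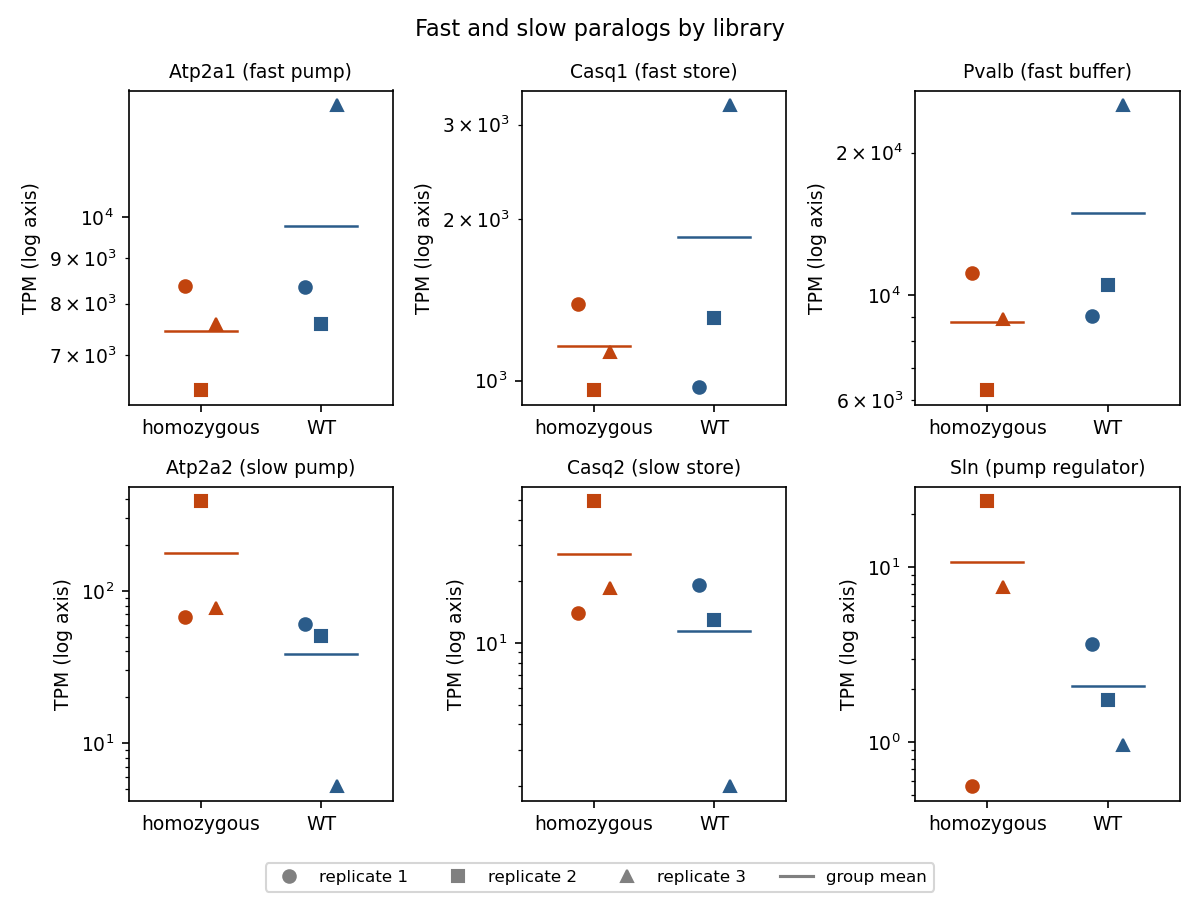
TPM (log axis) of the fast genes Atp2a1, Casq1 and Pvalb, the slow genes Atp2a2 and Casq2, and Sln in each library, with group means as lines. WT replicate 3 is highest for the 3 fast genes and lowest for the slow pair, and homozygous replicate 2 is highest for Atp2a2, Casq2 and Sln.

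Within a library the 2 paralogs can be set against each other. Atp2a2 made up 0.802%, 5.74% and 1.01% of the Atp2a1 and Atp2a2 total in the homozygous libraries and 0.718%, 0.661% and 0.0389% in WT. The log2 ratio of Atp2a1 to Atp2a2 was 5.85 ± 1.58 in homozygous and 8.46 ± 2.27 in WT muscle (SD, n = 3 each). The difference of -2.60 gave p 0.1 in a two-sided exact permutation test over the libraries, which is the smallest p that 3 against 3 allows, so it cannot pass 0.05. Without WT replicate 3 the difference was -1.29 (two-sided exact p 0.4). Casq2 made up 0.992%, 4.91% and 1.61% of both calsequestrins against 1.94%, 0.979% and 0.061%. The log2 ratio of Casq1 to Casq2 differed by -1.86 with overlapping groups (two-sided exact permutation p 0.4), and by -0.52 without WT replicate 3.

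The highest and the lowest library of both slow paralogs were also those of the slow-fibre markers (Myh7, Myl2, Myl3, Tnni1, Tnnt1, Tnnc1, Tpm3, Myoz2 and Myh7b). The 9 markers summed to 1821, 9276 and 2145 TPM in homozygous muscle against 1659, 1060 and 238 TPM in WT, all 9 were tested, 6 had groups that did not overlap and 0 were at 0 in any library. With the mean log2 level of these markers as a covariate, the log2 fold change was -0.28 for Atp2a2, -0.51 for Casq2 and -0.47 for Sln (limma, adjusted p 0.819, 0.816 and 0.933). The same covariate turned the sign of the fast genes, to 0.13 for Atp2a1, 0.45 for Casq1 and 0.31 for Pvalb. Per unit of Myh7, the slow myosin heavy chain, Atp2a2 was lower in the homozygous libraries (ratios 1.08, 0.775 and 0.921) than in the WT libraries (1.14, 1.54 and 2.09). These ratios were chosen after their values were seen and have no test. They rest on Myh7 alone, which was 2.50 TPM in WT replicate 3. Per summed TPM of the 9 markers, Atp2a2 overlapped between the groups.

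**Figure D3:**
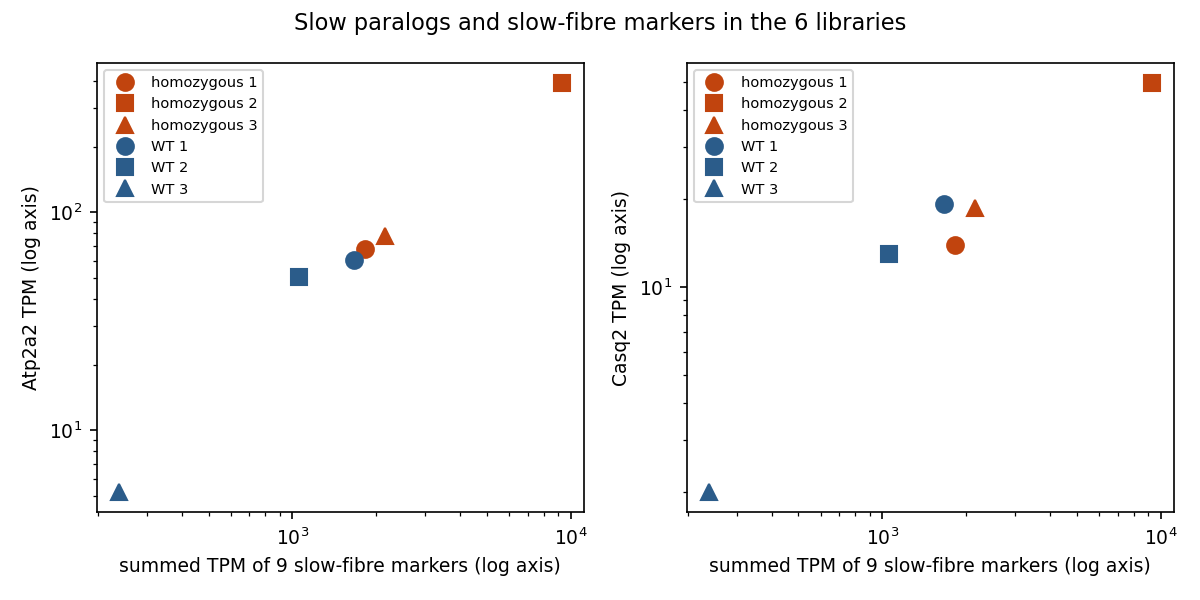
TPM of Atp2a2 (left) and Casq2 (right) against the summed TPM of 9 slow-fibre markers, both on log axes, with 1 point per library. WT replicate 3 is at the lower left at 238 TPM of markers and homozygous replicate 2 at the upper right at 9276 TPM.

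The small pump regulators Sln and Pln had levels far under those of the pump Atp2a1. Sln encodes sarcolipin, which uncouples SERCA transport from ATP use. It was 0.56, 23.9 and 7.71 TPM in homozygous muscle against 3.63, 1.73 and 0.961 TPM in WT. Homozygous replicate 1 was the lowest of the 6, so the groups overlapped, and the log2 fold change of 1.26 had an SE of 0.99 (limma, adjusted p 0.422). Pln, phospholamban of heart and slow fibres, was 2.30, 1.73 and 1.152 TPM against 1.199, 1.38 and 0.476 TPM. Its groups overlapped, and the log2 fold change was 0.44 (SE 0.24, adjusted p 0.272 in limma).

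Store-operated entry refills the reticulum from outside: Stim1 senses the store and Orai1 is the pore. Orai1 (chromosome 5, 123015074 to 123030456) was 34.3, 32.6 and 33.6 TPM in homozygous muscle against 23.0, 25.7 and 25.2 TPM in WT. The spread within each group was small and the groups were far apart beside it. The log2 fold change was 0.43 (SE 0.12; limma, adjusted p 0.168), 0.45 without WT replicate 3 and 0.13 after median centring. Stim1 (chromosome 7, 102267806 to 102437319) was 76.7, 68.8 and 61.9 TPM against 58.8, 50.3 and 36.7 TPM, again with no overlap. Its log2 fold change was 0.52 (SE 0.19; limma, adjusted p 0.176), or 0.22 after median centring. Mcu, the pore of mitochondrial calcium uptake, and Itpr1, an IP3 receptor, had overlapping groups, at 11.6 ± 1.27 against 10.2 ± 1.43 TPM and 6.07 ± 0.546 against 5.15 ± 1.67 TPM.

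Of the 9 genes of the calmodulin branch, 3 had groups apart, a share near the 34.7% of all genes. After median centring the same 3, Camk2b, Camk2g and Rcan1, still lay above WT, where 6.79% of all genes did. They were the only members to do so, 8.33% of the 36 tested, and 1 of the 9, Calm2, lay below WT. Camk2b, the CaMKII beta subunit (chromosome 11, 5969644 to 6066362, minus strand), was 64.9, 71.7 and 69.6 TPM in homozygous muscle against 50.4, 39.3 and 34.9 TPM in WT. It had the smallest p of the members, with a log2 fold change of 0.73 (SE 0.16, adjusted p 0.168 in limma), 0.61 without WT replicate 3 and 0.43 after median centring. Camk2g, the gamma subunit, was 59.3, 66.9 and 80.1 TPM against 48.2, 45.3 and 39.6 TPM. Its log2 fold change was 0.62 (SE 0.15; limma, adjusted p 0.168), or 0.31 after median centring. Camk2a, the most abundant subunit, overlapped at 146 ± 22.3 and 130 ± 12.3 TPM, and its share of all CaMKII TPM was 43.3% to 53.1% in homozygous muscle and 52.7% to 58.9% in WT. Camk2d, the delta subunit, was 19.6 ± 1.36 and 15.2 ± 6.71 TPM with overlap. The 4 subunits summed to 310, 279 and 320 TPM in homozygous muscle against 242, 249 and 201 TPM in WT, without overlap. This sum was not median centred, and on the same scale 34.7% of all genes lay above without overlap.

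Rcan1 was 191, 121 and 110 TPM in homozygous muscle against 62.9, 82.8 and 45.4 TPM in WT. Homozygous replicate 1 was the highest, and the lowest homozygous value lay above the highest WT value. Group averages were 141 ± 43.8 and 63.7 ± 18.7 TPM (SD, n = 3 each). On the log2 scale the difference was 1.13 (SE 0.27; limma, adjusted p 0.168), 0.91 without WT replicate 3 and 0.83 after median centring. The transcript from the internal start printed above (2190 nt, 4 exons) carried 77.4% to 87.3% of the gene in the homozygous and 70.4% to 80.8% in WT. It was 167, 102 and 85.5 TPM against 45.6, 66.9 and 32.0 TPM, a log2 fold change of 1.28 (SE 0.34, adjusted p 0.263 in limma over isoforms). The transcript from the upstream start (2324 nt) was 24.3, 19.9 and 24.9 TPM against 17.3, 15.9 and 13.4 TPM, a log2 fold change of 0.54 (SE 0.16, adjusted p 0.274 in limma). Both starts were thus higher in every homozygous library, and the difference between them was not tested.

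Calm2 and Calm3, which encode calmodulin, had lower mean values in homozygous muscle, without passing the test. Calm2 (chromosome 17, 87433412 to 87446935, minus strand) was 142, 118 and 120.5 TPM in homozygous muscle against 134, 213 and 155 TPM in WT. The groups overlapped in TPM and not after median centring, where the log2 fold change was -0.67. On the scale as deposited it was -0.37 (SE 0.19; limma, adjusted p 0.248). Calm3 was 122 ± 33.4 and 156 ± 19.7 TPM with overlap. The calcineurin catalytic subunits Ppp3ca and Ppp3cb overlapped, at 67.1 ± 7.33 against 56.4 ± 8.81 TPM and 97.8 ± 6.25 against 89.4 ± 22.8 TPM.

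**Figure D4:**
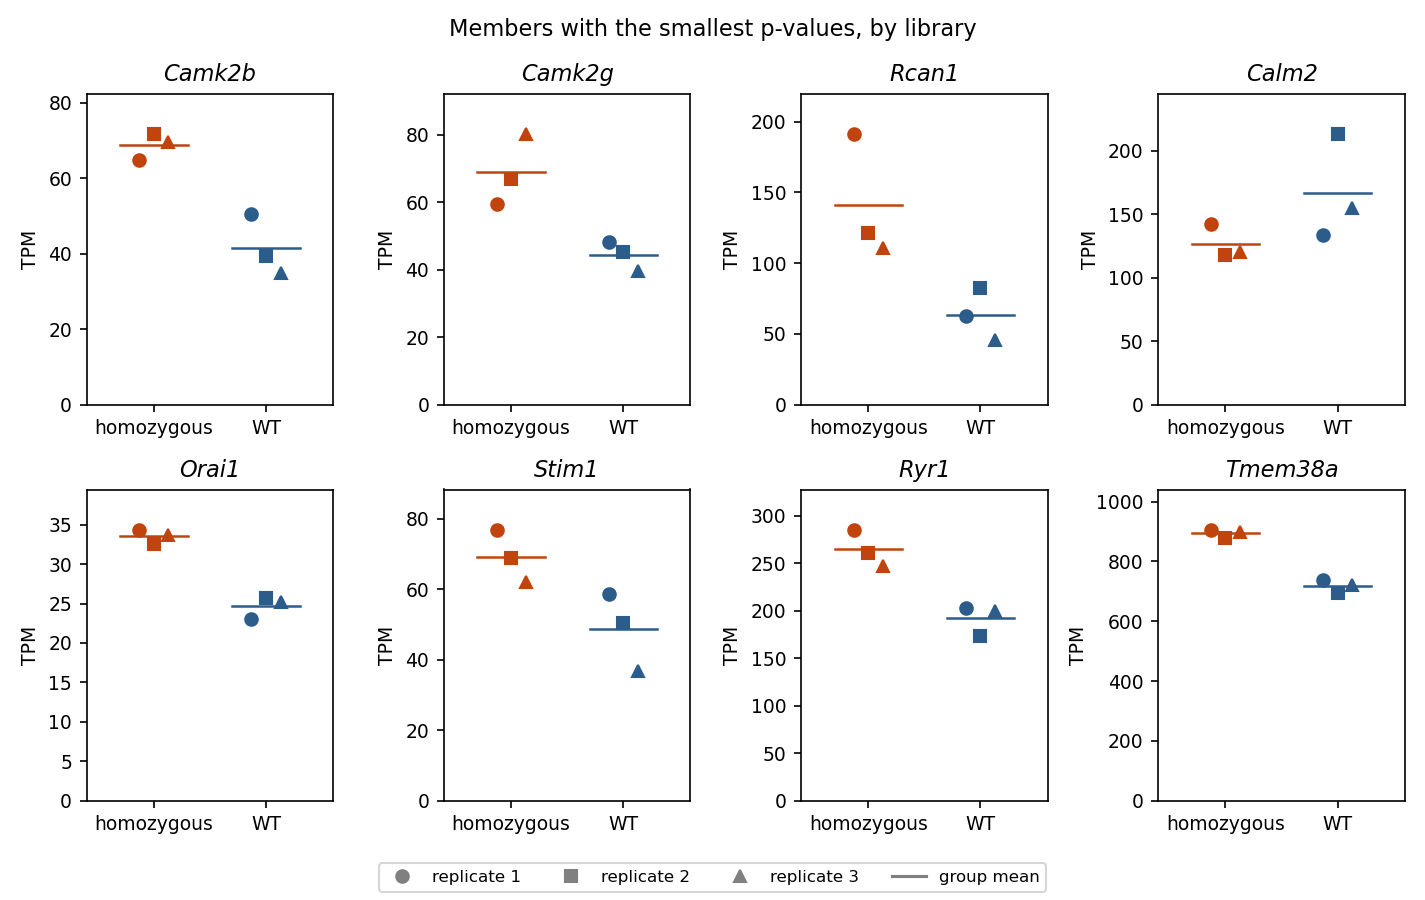
TPM by library for the 8 members with the smallest p-values, on axes that start at 0, with lines at the group means. Every homozygous point lies above every WT point for 7 of them, and Calm2 overlaps with lower homozygous values on average.

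Giving each library a weight for its quality (array weights, 0.199 for WT replicate 3 and 2.50 for WT replicate 1) called 5 of the 36 members, all higher in homozygous muscle: Orai1, Camk2b, Rcan1, Camk2g and Ryr1, with adjusted p of 0.0416 to 0.0489 in limma. The same weights called 7.3% of all genes. Of 8 lists of other cell types, 2 had summed levels that lay higher in every homozygous library, and the smooth muscle, endothelial, fibroblast, adipocyte, immune and cardiac lists overlapped. The 5 Schwann cell and nerve markers summed to 75.2, 103 and 28.2 TPM in homozygous muscle against 18.2, 24.9 and 15.7 TPM in WT, 4 of the 5 were tested and all 4 had groups apart, and 0 of the 5 were at 0 in any library. The 4 satellite cell markers summed to 4.37 to 4.56 against 2.49 to 3.94 TPM, and most of that sum was Chodl, the only 1 of the 4 that was tested (3.21 ± 0.274 and 2.09 ± 0.431 TPM). Pax7, Myf5 and Calcr were under 1 TPM in every library and overlapped. Their part in these results was not tested.

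Isoform rows were examined next, because several members divided their TPM between a full transcript and a short one. Of 21165 isoforms tested, 110 belonged to members. None of the 110 passed an adjusted p under 0.05 in limma, against 0.0425% of all isoforms. At an unadjusted p under 0.05 in limma 21 were higher and 5 lower, against 14.2% and 1.52% of all isoforms, and groups did not overlap for 25 higher and 6 lower, against 25.6% and 2.11%. The smallest member p was for a Camk2d isoform (ENSMUST00000171289.7, 2217 nt), at 2.91, 1.72 and 1.87 TPM in the homozygous libraries. In WT it was 0.208 TPM in replicate 1 and listed at 0 in replicates 2 and 3 (limma, log2 fold change 1.55, SE 0.26, adjusted p 0.17).

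Atp2a1 had 2 isoforms in the table. The full transcript (ENSMUST00000032974.12, 3477 nt, 23 exons) was 7968, 6054 and 6911 TPM in homozygous muscle against 7171, 5826 and 6788 TPM in WT, a log2 fold change of 0.078 (SE 0.17, adjusted p 0.816 in limma). A 681 nt transcript of the last 5 exons (ENSMUST00000146973.1, chromosome 7, 126445860 to 126447645) was 402, 338 and 684 TPM against 1173, 1770 and 6585 TPM. It held 4.80%, 5.29% and 9.01% of the gene in the homozygous and 14.1%, 23.3% and 49.2% in WT, so the groups did not overlap. Its log2 fold change was -2.40 (SE 0.64; limma, adjusted p 0.263). The lower Atp2a1 sum in homozygous muscle therefore lay in the short row, and with it left out the gene's value was 0.078 in place of -0.35.

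Casq1, Cacna1s and Camk2b also had a row at the 3′ end of the gene, which for Camk2b was not short. A 990 nt retained-intron transcript at the Casq1 end (ENSMUST00000170638.1) held 2.09% to 11.7% of the gene in the homozygous and 9.10% to 41.1% in WT, with overlap. For Cacna1s, a 1001 nt processed transcript of 5 exons (ENSMUST00000159106.1) held 44.7% to 48.9% against 54.7% to 84.4%. The 44-exon coding transcript of Cacna1s (ENSMUST00000160641.7, 6104 nt) was 159, 139 and 131 TPM in homozygous muscle against 101.5, 80.9 and 27.9 TPM in WT, without overlap and opposite in direction to the gene sum (log2 fold change 1.201, SE 0.45; limma, adjusted p 0.299). For Camk2b, an 8-exon processed transcript (ENSMUST00000155755.1, 3328 nt) was 3.82, 0.994 and 2.70 TPM against 12.9, 8.29 and 22.4 TPM, while the main coding transcript (ENSMUST00000109813.8, 4023 nt) was 37.6, 44.6 and 46.3 TPM against 20.0, 15.0 and 5.75 TPM. The log2 fold changes were -2.14 (SE 0.44) and 1.73 (SE 0.41), with adjusted p of 0.238 and 0.252 in limma.

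**Figure D5:**
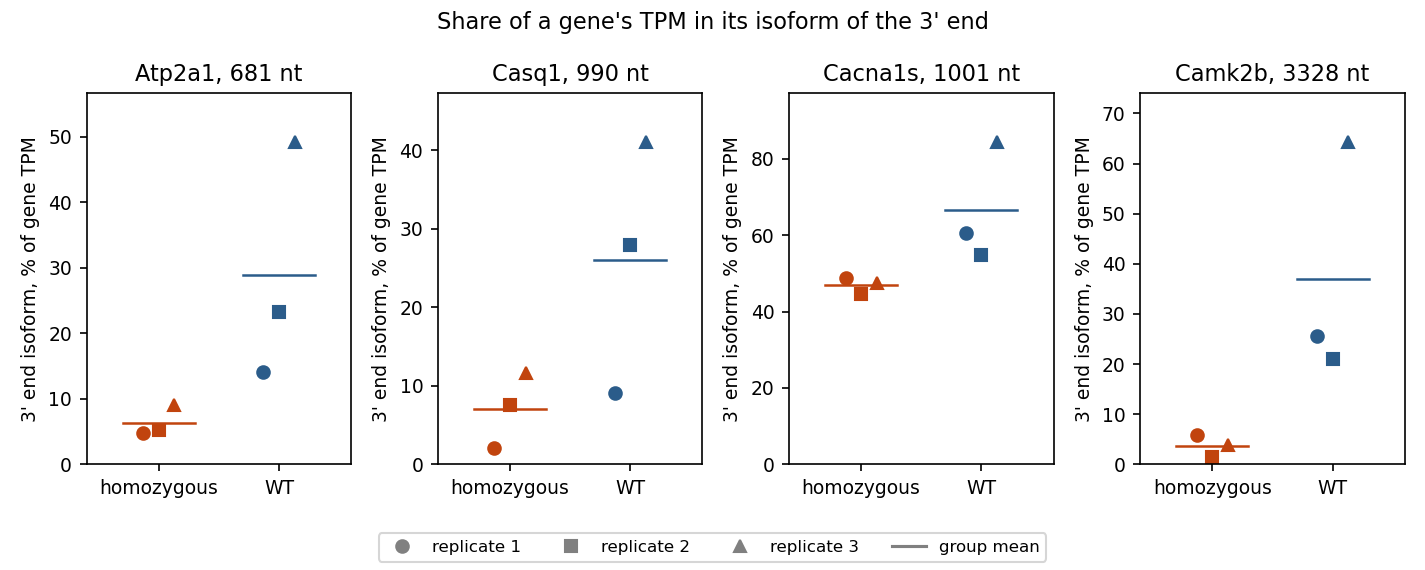
Percent of a gene's TPM in its isoform of the 3′ end, by library, for Atp2a1, Casq1, Cacna1s and Camk2b, with group means as lines and axes from 0. WT replicate 3 is highest in each panel, at 41.1% to 84.4%, and every homozygous point lies below every WT point except for Casq1.

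These rows start past the middle of the gene and end within 500 nt of its end. Over the whole table, 1455 tested isoforms of this kind had a median log2 fold change of 0.013, beside 0.263 for the other isoforms. They held 8.68% of nuclear TPM in WT replicate 3 and 5.32% to 5.87% in the other 5 libraries, and the mean transcript length weighted by TPM was 1320 nt in WT replicate 3 and 1398 to 1481 nt in the others. The rows of this kind in Atp2a1, Cacna1s and Camk2b were a larger share in each of WT replicates 1 and 2 than in any homozygous library. The part of RNA quality in these shares was not tested. With such rows left out of the sums, Cacna1s had a log2 fold change of 0.59, Camk2b of 1.40 and Casq1 of -0.14, and 0 members passed (limma). The rule also takes out the internal Rcan1 transcript, so the Rcan1 value of 0.54 there is that of the upstream start alone.

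In all, 22 members with a mean of at least 10 TPM had 2 or more isoforms that each held at least 10% of the gene, and 2 more of them are given here. The Orai1 transcript of 1482 nt (ENSMUST00000051016.4) was 23.5, 20.9 and 23.6 TPM in homozygous muscle against 13.6, 15.0 and 13.5 TPM in WT, while the 1875 nt transcript (ENSMUST00000121652.7) was 10.3 ± 0.881 and 10.3 ± 1.33 TPM. The first had a log2 fold change of 0.66 (SE 0.13, adjusted p 0.227 in limma) and the second of 0.0096. Jph2 had a 6-exon form that held 79.1% to 84.9% of the gene in homozygous muscle and 38.1% to 78.5% in WT, and a 7-exon form that was higher in each WT library. Isoform values are estimates, and the sources used here do not say how shared reads were divided.

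Of the other calcium genes listed for comparison, 39 were tested, 0 passed in limma and 12 had an unadjusted p under 0.05, all higher in the homozygous libraries, where 23.7% of all genes were. Groups did not overlap for 12 higher and 0 lower, against 34.7% and 0.73% of all genes, and the median log2 fold change of the 39 was 0.30. The genes of mitochondrial calcium transport were mixed. Letm1, a mitochondrial inner-membrane cation exchanger, was 26.8 ± 0.728 and 15.9 ± 2.33 TPM (log2 fold change 0.72, SE 0.14; limma, adjusted p 0.168). Micu2, a gatekeeper of the Mcu pore, was 27.4 ± 3.94 against 18.0 ± 4.16 TPM, and Slc8b1, the mitochondrial sodium-calcium exchanger, was 3.76 ± 0.315 against 2.32 ± 0.925 TPM. Micu3 and Smdt1, further subunits of the uptake complex, overlapped, with log2 fold changes of 0.028 and 0.049, and Mcub, below the level for testing, was 0.653 ± 0.166 and 0.95 ± 0.341 TPM. After median centring 3 of the 39 lay above WT without overlap, Letm1 and Micu2 among them, and 4 lay below. The shares of all genes were 6.79% and 8.38%. Ppp3cc and Rcan3, relatives of the calcineurin members, were higher in every homozygous library in TPM, at 19.4 ± 1.11 against 13.9 ± 1.97 TPM and 2.39 ± 0.48 against 1.39 ± 0.2 TPM. Both overlapped after median centring.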

How the data were processed

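RNA-seq was run on quadriceps from 3 homozygous and 3 WT samples, with poly-A selection and a kit that keeps strand, per the labels' protocols. The authors deposited a table of TPM of 105129 transcripts by 6 libraries, as read from the file headers. FastQC, Trimmomatic, HISAT2 and kallisto, and the build mm10, are named in the submitters' processing notes, with no role or version. TPM keeps no depth, so the depth is unknown and no counting interval is given. Every column matched 1 sample by its title.

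Here isoforms were summed per symbol and transformed to log2(TPM + 1). Genes (11099) and isoforms (21165) that reached 1 TPM in no fewer than 3 libraries were fitted with limma 3.58.1 in R 4.3.3, using genotype alone, a mean-variance trend, robust estimation and Benjamini-Hochberg adjustment over every feature tested. Log ratios of paralogs were compared by exact permutation. The fit was tested on simulated data. Positions and isoform structure are from GENCODE M21 (GRCm38), which matched 240 of the 240 member rows, 237 with their version number.

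The members and lists were chosen with earlier results of these data known. The rule gave full values to 10 fixed members and the 8 with the smallest p, some in both. It also named 52 isoforms, those at 10% or more of a gene with a mean of 10 TPM or more. The isoforms described among them, the Camk2d isoform and the other calcium genes named were picked after their values were seen. Alternatives were quantile normalization, median centring, mitochondrial transcripts left out, a pseudocount of 0.1, no filter, a replicate block, array weights, a slow-fibre covariate and leaving out each library. Leaving out isoforms of the 3′ end was chosen after seeing the data.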

Additional observations from a re-analysis of the deposited data

How the results depend on the processing

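No gene passed the threshold in limma, 810 did with array weights, and from 0 to 2 did when 1 library was left out. The count of 0 members was 5 with array weights and 0 under every other alternative, and the count of 0 member isoforms was 0 under all of them. Members with homozygous libraries above without overlap numbered 9, which became 4 with quantile normalization and 3 with median centring (8.05% and 6.79% of all genes), and ran from 11 to 13 without 1 library (38.5% to 47.1% of all genes). Those below numbered 0, which became 1, 3 and 2 with quantile normalization, median centring and mitochondrial transcripts left out (7.34%, 8.38% and 1.19% of all genes). They ran from 0 to 5 without 1 library, with 5 without homozygous replicate 1 and 2 without WT replicate 1 (3.1% and 2.16% of all genes). The share of all genes moved with these settings too. The difference in log2 ratio ran from -3.28 to -1.29 for Atp2a1 to Atp2a2 and from -2.77 to -0.52 for Casq1 to Casq2 without 1 library.

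Of the 16 members given with a fold change in every setting, 9 kept their direction under all alternatives, among them Ryr1, Orai1, Stim1, Camk2b, Camk2g and Rcan1. The 9 were Pln and the 8 members named for the smallest p in the same libraries, so their steady direction is no separate support. With the slow-fibre covariate the log2 fold change was reversed for Cacna1s (0.23), Casq1 (0.45), Casq2 (-0.51), Atp2a1 (0.13), Atp2a2 (-0.28), Sln (-0.47) and Pvalb (0.31). Without WT replicate 3 it was reversed for Cacna1s (0.053; lowest of these fits -0.44) and Casq1 (0.024; lowest -0.85), and with isoforms of the 3′ end left out for Cacna1s (0.59) and Atp2a1 (0.078). The cause was not tested.

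With the replicate number as a block, 0 genes, 0 members and 0 member isoforms passed, and 7 members had an unadjusted p under 0.05 (limma), where 20.5% of all genes did. Libraries with the same number had deviations from their group means that correlated, over genes, at -0.071, 0.061 and -0.013. Those with different numbers correlated at -0.139 to 0.131. The check gave no sign of pairing by number, but 3 libraries in each group are too few to exclude it.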
